A study of Mus musculus with 10 samples.

Results

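The unfolded protein response and secretory chaperone genes are 32 genes whose products fold, modify and quality-control proteins in the endoplasmic reticulum (ER), or sense and relay a shortage of folding capacity there. They were taken by symbol from a table of 36144 genes, all 32 were present, and all 32 were abundant enough to be tested among 13131 genes. RNA came from primary cultures of aortic smooth muscle, at passages 2 to 7, from male mice aged 8 weeks. Of the 6 RNA libraries, 3 were from wild-type mice and 3 from mice with Myh11-Cre-ERT2 and Adamts7 overexpression in smooth muscle, each library from its own mouse and all under 1 batch label. Overexpression RNA libraries bear titles that open with the wild-type abbreviation but a genotype label of overexpression, which was used here. Myh11-Cre-ERT2 is a tamoxifen-dependent recombinase driven by a smooth muscle myosin promoter. No source used here states a tamoxifen treatment or names a driver in the wild-type animals, so driver, drug and overexpression cannot be told apart. Passage is given only as that range and not per library, so its part in any difference was not tested. ATAC-seq, which reads open chromatin, was made from 2 mice of each genotype and enters through footprint scores of transcription factor motifs.

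Sensors in the ER membrane start this response. Ire1 (gene Ern1) splices the Xbp1 messenger RNA, Atf6 is cut in the Golgi to release a transcription factor, and Perk (gene Eif2ak3) phosphorylates the translation factor eIF2 alpha, which lowers protein synthesis in general while favouring translation of Atf4. Spliced XBP1 and cleaved ATF6 act mainly on chaperone and degradation genes, and ATF4 mainly on amino acid supply and on the genes that end the translation block. Smooth muscle cells that secrete collagen and other matrix proteins pass them through the same folding machinery. Gene-level RNA does not show Xbp1 splicing, Atf6 cleavage or eIF2 alpha phosphorylation.

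Some members carry promoter elements of these branches, and those elements are shown before the values. RefSeq promoters (GRCm38.p6, 250 bases before to 50 after each gene's annotated start) were found for 28 of the 32 members. The ER stress element, searched on both strands as CCAAT, 9 bases of any kind and CCACG, is bound by NF-Y at its CCAAT end and by ATF6 or XBP1 at its CCACG end. It lay in 39 of 32851 promoters (0.119%) and in those of 9 members. In the following sequences, read 5′ to 3′ along the strand that carries the element, capitals mark the letters of the element that are fixed. Distances run from the end of the element that comes first along the gene to the RefSeq start.

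Hspa5, chr2:34772021-34772047, 65 bases before the start: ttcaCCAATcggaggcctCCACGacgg
Hsp90b1, chr10:86705529-86705555, 107 bases before the start: ctcaCCAATcgtgcctcaCCACGcact
Hsp90b1, chr10:86705634-86705660, 212 bases before the start: aagcCCAATcgcaaggagCCACGcttc
Calr, chr8:84847071-84847097, 162 bases before the start: tgggCCAATgagggtcgaCCACGcgtt
Canx, chr11:50325796-50325822, 145 bases before the start: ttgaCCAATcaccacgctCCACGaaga
Pdia6, chr12:17266487-17266513, 98 bases before the start: gagaCCAATgaaaggcggCCACGgcgt
Dnajc3, chr14:118937823-118937849, 105 bases before the start: acaaCCAATcagcgccaaCCACGaccc
Creld2, chr15:88819516-88819542, 126 bases before the start: tggaCCAATtgaggctcgCCACGagaa
Syvn1, chr19:6046528-6046554, 44 bases before the start: gcaaCCAATcggcggtagCCACGggaa
Derl3, chr10:75893238-75893264, 156 bases before the start: ctagCCAATggggaagtcCCACGgtag

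Of these genes, 7 encode chaperones or folding helpers, while Syvn1 and Derl3 belong to ER-associated degradation. The stretch of 110 bases that ends just before the start of Hspa5 (chr2:34771980-34772089, plus strand), the gene of the ER's main Hsp70, holds 2 copies of CCAAT and 1 of CCACG, in capitals.

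Hspa5 promoter: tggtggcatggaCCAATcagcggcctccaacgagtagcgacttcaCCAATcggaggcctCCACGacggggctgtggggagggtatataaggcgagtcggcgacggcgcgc

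A shorter form, ER stress element II, searched as ATTGG, 1 base of any kind and CCACG, lay in 12 promoters (0.0365%), those of Herpud1 and Dnajb11 among them. The core that ATF4 binds with a C/EBP partner, searched as TGATGNAA, was far more common, at 3.97% of promoters, and was found in 4 members. These were the ATF4 targets Asns, Chac1 and Trib3, and Herpud1, which holds both kinds of element.

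Asns, chr6:7693221-7693236, 23 bases before the start: cacaTGATGaAActtc
Chac1, chr2:119351045-119351060, 193 bases before the start: ggagTGATGcAAcggc
Trib3, chr2:152344035-152344050, 14 bases after the start: cggcTGATGtAAacct
Herpud1, chr8:94386313-94386328, 112 bases before the start: gggcTGATGcAAcccg
Herpud1 element II, chr8:94386373-94386391, 52 bases before the start: gctgATTGGgCCACGttgg

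The XBP1 site searched as TGACGTGG lay in 0.676% of promoters and in none of the members' windows. Such matches are letters in a window and not measured binding. The members were chosen as genes of these branches, so the shares describe them and test nothing.

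The libraries differed in more than Adamts7. Adamts7 itself measured 6.82 ± 1.20 TPM in wild type, 84.5 ± 12.4 TPM under overexpression (SD, n = 3 a genotype; limma adjusted p = 0.000357). TPM, transcript abundance scaled to an equal total in each library, is corrected for gene length and keeps no record of read number, so depth is unknown. All 21 macrophage markers had a positive fold change, with a summed level of 604 to 872 TPM in wild type and 1313 to 4181 TPM in overexpression cultures, and none was at 0 in any library. The most abundant, Lyz2 and C1qa, went from 246 and 74.8 TPM to 1348 and 287 TPM. Of 16 endothelial markers 15 had a negative fold change, with sums of 5952 to 6524 and 2962 to 5042 TPM, led by Emcn at 2046 and 1153 TPM and Cdh5 at 919 and 612 TPM. Contractile smooth muscle markers summed to 5223 to 5307 and 5987 to 8049 TPM, with Cald1 at 1554 and 1726 TPM, Acta2 at 1249 and 1764 TPM and Myh11, the defining smooth muscle myosin, at 37.3 and 53.4 TPM. Fibroblast markers summed to 1445 to 1560 and 1169 to 1530 TPM, mostly Cd34 and Gsn, with Dpt, Lum, Dpep1 and Clec3b under 1 TPM. Fewer cells of a type and less RNA per cell cannot be told apart in such bulk cultures. Plasma cell genes, the markers of a professional secretory cell, stayed near 0, with Tnfrsf17 listed at 0 in every library, while Sdc1, which other cells also express, was at 52.1 and 70.8 TPM and Ighm at 0.93 and 1.95 TPM.

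Most ER chaperones and folding enzymes had a higher RNA level in overexpression cultures, by amounts that stayed short of the adjusted threshold. Their 15 genes together made up 6118 to 6380 TPM in wild type and 6770 to 7123 TPM in overexpression cultures, so the sums did not overlap, and the mean was 11.3% higher. Of the 15 genes 13 had a positive log2 fold change, beside 48.3% of all genes tested. The median of the 15 was 0.10 on the log2(TPM + 1) scale. All genes tested had a median of -0.0090 and a median absolute change of 0.13, so the chaperone changes were not large in size. None of the 15 passed limma's adjusted threshold of 0.05, and the lowest adjusted p in the group was 0.131. When limma was given library quality weights, which counted overexpression replicate 2 least, 6 of them passed it, as did 2728 of all genes tested. At an unadjusted p under 0.05, 6 of 15 (40.0%) were higher and 0 lower, where 10.6% of all genes tested were higher and 8.94% lower. In 8 of 15 every overexpression library lay above every wild-type library, a pattern seen in 14.3% of all genes tested.

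Hspa5 (ENSMUSG00000026864.13, chr2:34772090-34776529), which encodes BiP, the Hsp70 that holds unfolded chains and keeps the sensors silent, was at 479.7, 499 and 499 TPM in wild type and at 561, 667 and 564 TPM in overexpression cultures. The genotypes did not overlap, and overexpression replicate 2 stood above the other two. The log2 fold change was 0.27 ± 0.079 (SE; limma adjusted p = 0.151). Hsp90b1 (ENSMUSG00000020048.13, chr10:86690841-86705444), which encodes Grp94, the Hsp90 of the ER, was at 686, 677 and 669.8 TPM in wild type and at 782, 824 and 778 TPM in overexpression cultures. The genotypes did not overlap, the SDs were 8.24 and 25.4 TPM, and the log2 fold change was 0.23 ± 0.054 (SE; limma adjusted p = 0.131).

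The lectin chaperone Calr, calreticulin, which retains glycoproteins until they are folded, was the most abundant member. It was at 1646, 1561 and 1558 TPM in wild type and at 1738, 1836 and 1766 TPM in overexpression cultures. Here too no library of one genotype reached the other, and the log2 fold change was 0.16 ± 0.059 (SE; limma adjusted p = 0.203). Under quantile normalization, which gives every library the same set of values, it was 0.0058 (limma adjusted p = 0.971). Its membrane-bound partner Canx, calnexin, was at 758, 656 and 685 TPM in wild type and at 745, 682 and 778 TPM in overexpression cultures. Those values overlapped throughout, with a log2 fold change of 0.072 (95% interval -0.11 to 0.26), which became 0.026 or 0.131 when wild-type replicate 2 or 1, respectively, was dropped.

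Among the disulphide isomerases, P4hb, which also serves as the beta subunit of collagen prolyl 4-hydroxylase, was at 803, 756 and 795 TPM in wild type and at 859.6, 964 and 876 TPM in overexpression cultures, a log2 fold change of 0.20 ± 0.066 (SE; limma adjusted p = 0.189). Pdia6, which also acts on the Ire1 sensor, had 0.20, or 0.11 with library quality weights, and did not overlap either. Pdia3, the partner of calnexin and calreticulin, was at 779, 759.7 and 740.0 TPM against 828, 796 and 822 TPM, without overlap but with an interval that included 0 (0.10, 95% interval -0.025 to 0.23, and 0.057 under quantile normalization). Pdia4 overlapped, with 0.084. The isomerases thus ranged from 0.084 to 0.20.

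BiP works with J-domain proteins that bring it clients and with exchange factors that reset it. Sdf2l1, a partner of these J-proteins, was at 29.3 ± 2.40 and 34.8 ± 3.13 TPM (SD, n = 3 each) and did not overlap, with 0.24. Dnajb11, a client-delivering J-protein, did not overlap either and had 0.125, or 0.082 without overexpression replicate 2. The other cochaperones overlapped. Dnajb9, the J-protein that returns BiP to Ire1, had -0.039 (95% interval -0.18 to 0.10), Dnajc3, an inhibitor of Perk, 0.037, Hyou1, the exchange factor Grp170, -0.027, the secreted stress protein gene Manf 0.047, and Creld2 0.084. Dnajb9, which responds to XBP1, and Hyou1 were the 2 members of the group below 0.

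**Figure D1:**
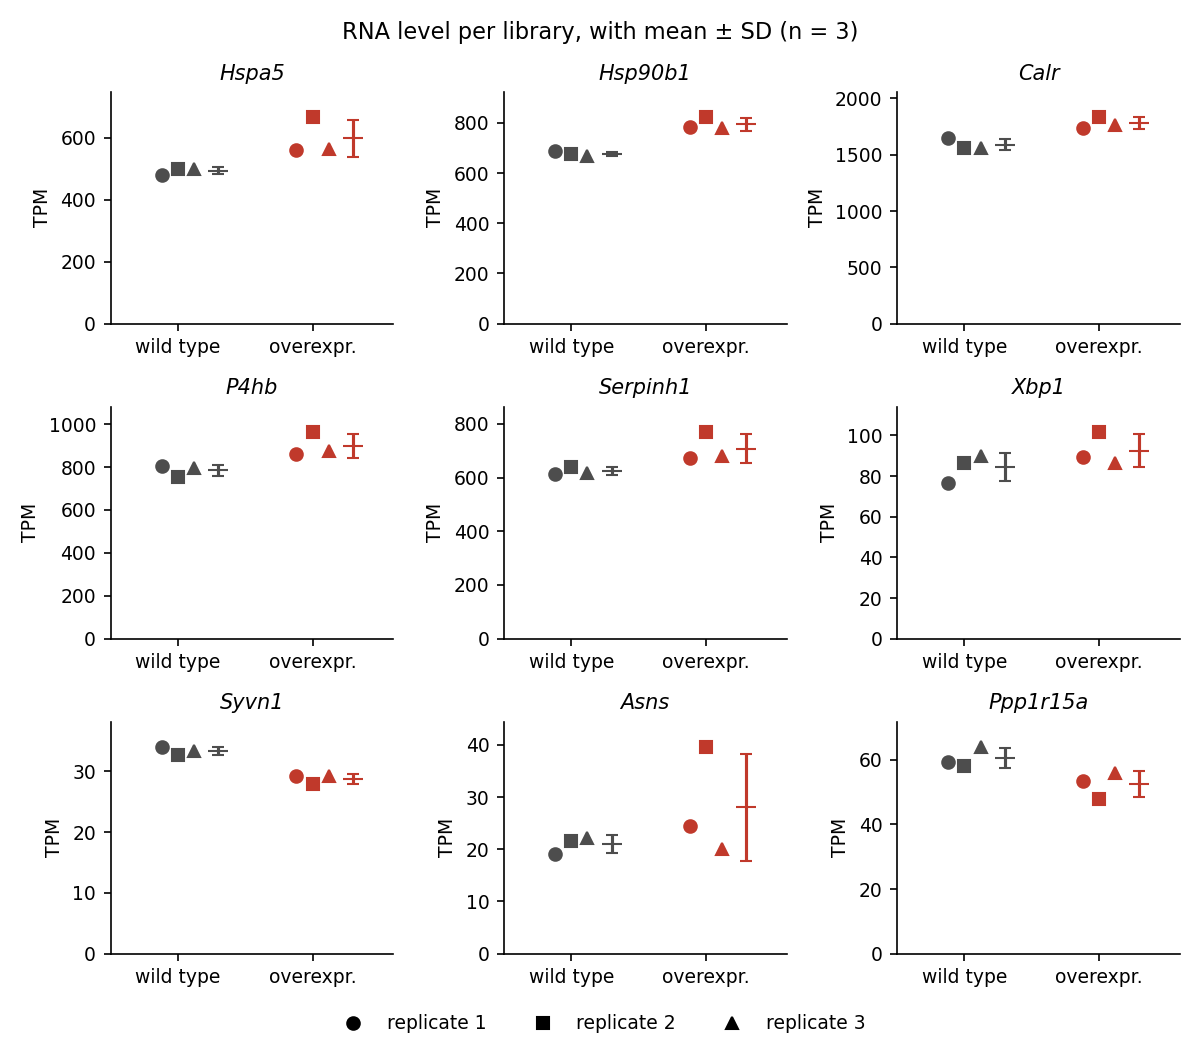
RNA level in TPM (vertical axes, each starting at 0) of 9 members in the 3 wild-type libraries (grey) and the 3 overexpression libraries (red), one symbol per replicate, with mean and SD beside them. Hspa5, Hsp90b1, Calr, P4hb and Serpinh1 do not overlap between genotypes and are higher in overexpression cultures, Syvn1 and Ppp1r15a do not overlap and are lower, and for Asns 1 library, overexpression replicate 2 at 39.6 TPM, stands far from the rest.

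Chaperones with and without the exact ER stress element overlapped in their fold changes. Over the 7 chaperone genes with the element printed above the median log2 fold change was 0.16, from 0.037 in Dnajc3 to 0.27 in Hspa5. The 6 with a promoter entry and no exact match had 0.11, from -0.039 in Dnajb9 to 0.24 in Sdf2l1. Syvn1 and Derl3, which carry the element and are no chaperones, had -0.20 and -0.016. Of the 28 other genes with the element in their promoter, 9 were tested under the same symbol, with a median of 0.011. Ero1b, one of the 28, bears the symbol Ero1lb in the RNA values, with 0.16, and is not among the 9. At an unadjusted p under 0.05 in limma's fit 0 of these 9 stood out in either direction, beside 19.5% of all genes tested, a count too small to set them apart.

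The collagen chaperone Serpinh1 (Hsp47), which binds procollagen in the ER and escorts it to the Golgi, was at 613, 642 and 618 TPM in wild type and at 672, 771 and 682 TPM in overexpression cultures. No library overlapped, and the log2 fold change was 0.18 ± 0.069 (SE; limma adjusted p = 0.224), or 0.12 without overexpression replicate 2. RNA of the fibrillar collagens, which are part of its clients, differed by more. Even so, 0 of the 8 tested passed limma's adjusted threshold (lowest limma adjusted p = 0.121). Fibrillar collagen genes summed to 735 to 789 TPM in wild type and 982 to 1591 TPM in overexpression cultures, among them Col1a1 with a log2 fold change of 1.27, Col3a1 with 1.20 and Col2a1 with 2.84, while Col5a2, the most abundant of them, had -0.048. Serpinh1 thus went from 0.813 to 0.839 TPM per TPM of fibrillar collagen in wild type to 0.557, 0.484 and 0.694 in overexpression replicates 1, 2 and 3. For the 15 chaperones, the fibrillar collagen sum was 0.115 to 0.129 of the chaperone sum in wild type and 0.142 to 0.223 in overexpression cultures.

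RNA of the sensors and their factors did not differ detectably between genotypes. None of the 5 genes reached an unadjusted p of 0.05 in limma's fit, beside 19.5% of all genes tested. All 5 overlapped, where 14.3% of all genes lay without overlap on the higher side and 12.9% on the lower. With 5 genes these counts are too small to set the sensors and factors apart. Ern1 was at 27.9, 27.6 and 28.1 TPM in wild type and at 24.5, 20.5 and 29.8 TPM in overexpression cultures, so the wild-type libraries were close together and the overexpression libraries lay on both sides of them (log2 fold change -0.17, 95% interval -0.47 to 0.13, -0.043 without overexpression replicate 2 and -0.30 without overexpression replicate 3). Eif2ak3 was at 20.0, 19.5 and 21.7 TPM against 20.4, 20.6 and 20.8 TPM (0.015, 95% interval -0.16 to 0.19). Atf6 was at 17.7, 17.3 and 18.6 TPM against 18.3, 16.9 and 17.8 TPM (-0.017, 95% interval -0.20 to 0.16).

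Xbp1 RNA, itself a target of ATF6, was at 76.6, 86.3 and 89.96 TPM in wild type and at 89.3, 102 and 86.5 TPM in overexpression cultures, with only overexpression replicate 2 above all wild-type libraries (0.13, 95% interval -0.078 to 0.34). Without that library the value was 0.062, and without wild-type replicate 1 it was 0.066. Atf4 RNA was at 130.4, 137 and 145 TPM against 134, 160.5 and 131 TPM, and again only overexpression replicate 2 stood above wild type (0.040, 95% interval -0.17 to 0.25).

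ER-associated degradation, which moves misfolded proteins back to the cytosol for the proteasome, had a median near 0. Its 7 genes summed to 379 to 406 TPM in wild type and 401 to 404 TPM in overexpression cultures, and the median fold change was -0.013 on the log2 scale. Syvn1, the ubiquitin ligase Hrd1 at the centre of the pathway, was lower, at 34.0, 32.6 and 33.3 TPM in wild type and 29.3, 27.9 and 29.2 TPM in overexpression cultures. The groups did not overlap, as in 12.9% of all genes tested on the lower side, with a log2 fold change of -0.20 ± 0.065 (SE; limma adjusted p = 0.17). Edem1, a lectin that hands over misfolded glycoproteins, was higher, at 85.5, 88.3 and 91.2 TPM against 97.5, 97.9 and 96.2 TPM, also without overlap (0.14 ± 0.056 SE; limma adjusted p = 0.241).

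Sel1l, the partner that holds Hrd1 in place, was at 71.0, 73.0 and 72.3 TPM against 70.4, 64.4 and 74.9 TPM (-0.047). Derl2, of the membrane channel, was at 71.8, 77.8 and 80.7 TPM against 80.1, 89.0 and 79.4 TPM (0.11, but 0.056 without overexpression replicate 2 and 0.061 without wild-type replicate 1), and its relatives Derl1 and Derl3 had 0.010 and -0.016, Derl3 at a level of only 2.09 TPM. Herpud1, whose promoter carries both elements shown above, was at 67.0, 69.4 and 75.4 TPM against 70.1, 69.3 and 70.1 TPM (-0.013). Syvn1 and Edem1 therefore lay on opposite sides of 0 while the other 5 overlapped. Having 1 of 7 genes without overlap on each side is near the shares of all genes tested, 14.3% higher and 12.9% lower. These counts thus do not set the degradation genes apart.

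The 4 ATF4 targets among the members had a median of -0.019 on the log2 scale and did not move one way. Asns, asparagine synthetase, was at 19.2, 21.7 and 22.2 TPM in wild type and at 24.4, 39.6 and 20.1 TPM in overexpression cultures. The interval was wide (0.35, 95% interval -0.18 to 0.87), and without overexpression replicate 2, the highest library, the value was 0.077 and without overexpression replicate 3 it was 0.55. Ppp1r15a (Gadd34), which directs the phosphatase that ends the translation block, was lower in every overexpression library, at 59.3, 58.1 and 64.0 TPM against 53.4, 48.0 and 55.9 TPM (-0.20 ± 0.079 SE; limma adjusted p = 0.226).

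Trib3, a pseudokinase that restrains ATF4, was at 9.90, 8.54 and 8.09 TPM against 8.40, 9.52 and 8.78 TPM (0.011, 95% interval -0.24 to 0.27). Chac1, which degrades glutathione, was at 8.24, 9.43 and 8.90 TPM against 8.45, 8.15 and 8.97 TPM (-0.049, 95% interval -0.28 to 0.18). Both genes overlapped between genotypes.

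**Figure D2:**
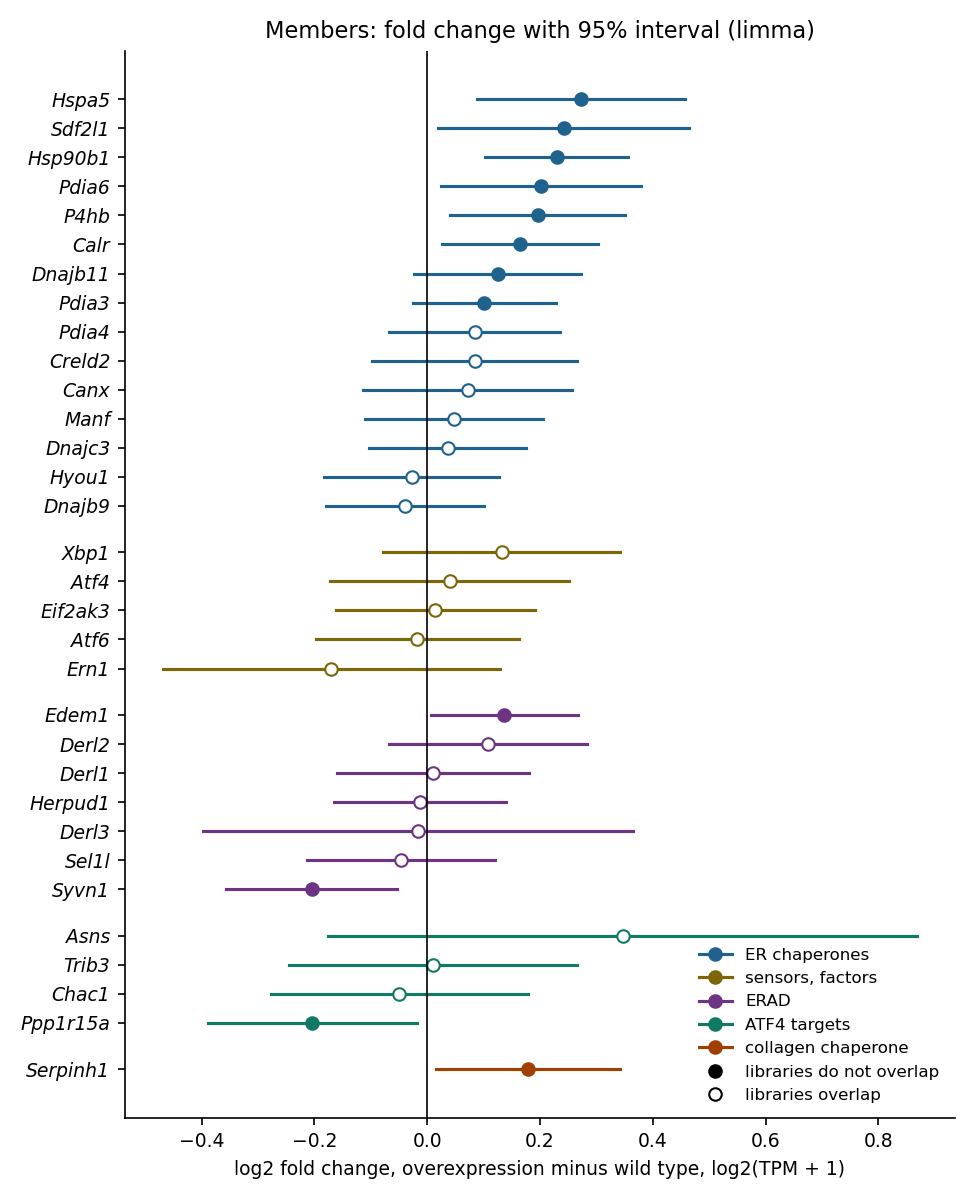
Log2 fold change of each of the 32 members (horizontal axis, overexpression minus wild type on the log2(TPM + 1) scale) with its 95% interval from limma, coloured by role, filled where the libraries of the genotypes do not overlap. Chaperones lie mostly to the right of 0, from -0.039 for Dnajb9 to 0.27 for Hspa5, while the sensors, degradation genes and ATF4 targets lie on both sides.

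Set against each other, the chaperone branch had a median of 0.10 and the 4 ATF4 targets -0.019, a difference of 0.12. By library and relative to wild type, the difference of medians was 0.156, 0.158 and 0.185 in overexpression replicates 1, 2 and 3 and 0.080, -0.026 and -0.032 in wild type, so it was larger in all 3 overexpression libraries. By means over the same genes it was 0.118, -0.0021 and 0.164, against 0.031, -0.028 and -0.0029 in wild type. The mean in overexpression replicate 2 includes Asns, which was high there. No p is given for it because the members were chosen with results known.

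The contrast also depended on which ATF4 genes were counted. In a longer list of 44 tested genes of the ATF4 and integrated stress response programme the median was 0.11, and with it added to the ATF4 branch the difference between branches was -0.00064. At an unadjusted p under 0.05, 13 of the 44 (29.5%) were higher and 1 was lower, beside 10.6% and 8.94% of all genes tested, and none passed limma's adjusted threshold. The 13 higher genes include those of the stress factors Atf3 and Ddit3 (Chop). Mthfd1l, of mitochondrial one-carbon metabolism, was at 7.57, 8.70 and 8.07 TPM in wild type and at 12.1, 13.9 and 11.45 TPM in overexpression cultures (0.56 ± 0.11 SE; limma adjusted p = 0.128).

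Atf3 was at 8.94 ± 0.99 and 13.5 ± 1.38 TPM (SD, n = 3 each) with a log2 fold change of 0.55, and Ddit3 at 28.8 ± 0.71 and 37.8 ± 6.22 TPM with 0.37, neither overlapping. The most abundant genes of this list, the chromatin-associated stress gene Nupr1 and the seryl-tRNA synthetase gene Sars, had 0.18 and 0.0083. In overexpression replicate 2 the list stood at a median of 0.215 above the wild-type mean, against 0.046 and 0.088 in replicates 1 and 3, and 23 of its 44 genes were highest in that library. Without overexpression replicate 2 the median over the list was 0.049 and 9 of its genes were higher at an unadjusted p under 0.05, and without wild-type replicate 1 or 3 that count was 6. Ddit3, Psat1, Phgdh, Psph, Pycr1 and Aldh18a1 were named beyond the naming rule after their values were seen. Psat1, of serine synthesis, had 0.39, while the other enzymes of that route, Phgdh and Psph, had 0.13 and 0.11 and did not reach an unadjusted p of 0.05 in limma's fit. Pycr1, of proline synthesis, had 0.54, and Aldh18a1, of the same route, 0.11 and did not reach it either.

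Other parts of the secretory pathway showed small positive medians. Genes of translocation and ER to Golgi transport had a median of 0.084 over 38 genes, with 7 higher (18.4%) and 1 lower (2.63%) at an unadjusted p under 0.05, where all genes tested gave 10.6% and 8.94%, and summed to 5580 to 5626 TPM in wild type and 5855 to 6179 TPM in overexpression cultures. Tmed2, a cargo receptor of transport vesicles, was at 447 ± 16.6 and 544 ± 23.3 TPM (SD, n = 3 each; log2 fold change 0.28; limma adjusted p = 0.131), Sec11c, of the signal peptidase, had 0.31, and Ssr3, of the translocon, 0.13. Further folding and redox genes had 0.058 over 28 genes, with 7 higher (25.0%, beside the same 10.6% of all genes) and 0 lower. There Mesd, a chaperone of lipoprotein receptors, had 0.18, the J-protein gene Dnajc1 0.21, the calcium-binding Calu 0.17, and the abundant isomerase gene Txndc5 -0.21, at 743.8 to 1244 TPM in overexpression cultures.

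Collagen-modifying enzymes of the ER had a median of 0.11 over 19 genes, with 5 higher (26.3%, beside 10.6% of all genes tested) and 2 lower (10.5%, beside 8.94%). P3h4, which supports lysyl hydroxylation, was at 32.8, 33.6 and 34.5 TPM against 51.3, 58.5 and 41.25 TPM (0.55; limma adjusted p = 0.131), and Plod2, a lysyl hydroxylase of collagen telopeptides, had 0.45. The prolyl isomerase genes Fkbp9 and Fkbp10 had 0.20 and 0.17. Further degradation genes had a median of -0.0043 over 20 genes, with Selenos at 0.30, Ngly1 at 0.24, Vcp at 0.068 and Os9 at -0.034. Further regulators had -0.023 over 19 genes, with Ufl1 at 0.25, Tmbim6, a restraint on Ire1, at -0.16 and Nfe2l1 at -0.10. Cytosolic heat shock genes, which are not of the secretory pathway, had 0.074 over 22 genes. At an unadjusted p under 0.05, 5 of them were higher (22.7%, beside 10.6% of all genes tested) and 0 lower. In this list Hspa1b had 0.56, a value that is uncertain because the near-identical Hspa1a shares its reads. Cryab had 0.54, and the abundant Hspa8 and Hsp90ab1 had -0.039 and -0.022. None of these lists held a gene past limma's adjusted threshold.

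**Figure D3:**
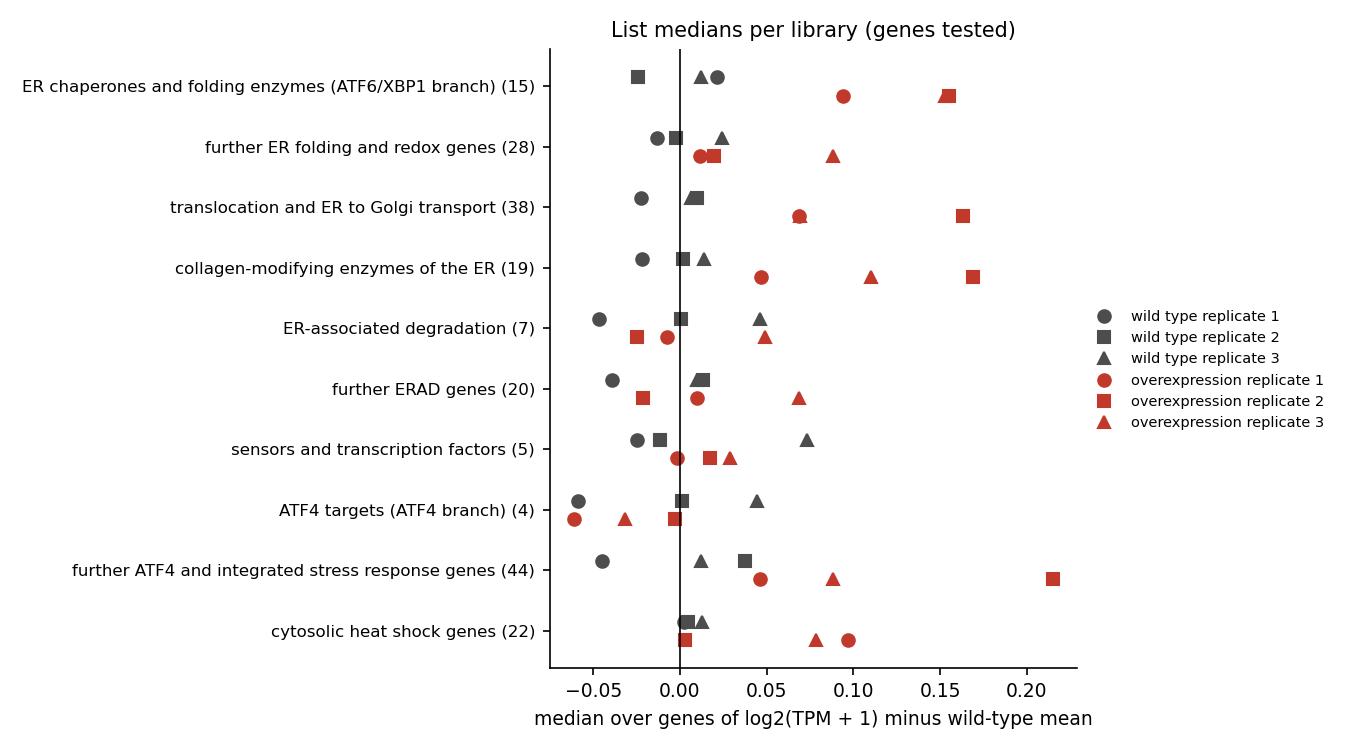
Median over the tested genes of each list (number in parentheses) of log2(TPM + 1) minus the wild-type mean of the gene, per library, with wild type in grey and overexpression in red and one symbol per replicate. The 3 overexpression libraries stand at 0.094, 0.155 and 0.153 for the chaperones, above the wild-type range of -0.024 to 0.021, and at -0.061, -0.0029 and -0.032 for the ATF4 targets, within the wild-type range apart from replicate 1.

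The chaperone shift was positive in all 3 overexpression libraries and smallest in replicate 1, with medians of 0.094, 0.155 and 0.153 in replicates 1, 2 and 3. Macrophage markers in the same libraries had medians of 2.13, 1.97 and 0.66, endothelial markers -0.45, -0.92 and -0.26, and fibrillar collagens summed to 1206, 1591 and 982 TPM. Overexpression replicate 3 thus had the smallest difference in all 3 of these and a chaperone median close to that of replicate 2. The part of other cell types in the chaperone shift was not tested. Without overexpression replicate 2 the chaperone median was 0.125 and 5 of 15 chaperones were higher at an unadjusted p under 0.05, beside 9.39% of all genes. Without wild-type replicate 2 it was 0.099 with 3 of 15, beside 8.09%.

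Footprint scores in open chromatin were slightly lower in overexpression cultures for the XBP1 and ATF6 motifs and higher for the ATF4 motif. The authors' deposited table gives 1 score per genotype and motif over merged mice, so these values carry no SD. Change scores are signed here as overexpression over wild type. In the authors' deposited table the XBP1 motif had a score of 0.315 in wild type and 0.303 in overexpression (change -0.070), with 20.7% and 19.6% of 6639 sites called bound. ATF6 had 0.273 and 0.264 (change -0.056), with 15.7% and 15.1% of 9458 sites bound in the authors' deposited table. The related CREB3, CREB3L1 and Creb3l2 had changes of -0.046, -0.089 and -0.14 in the authors' deposited table. Of the 2 CREB3L4 motifs in the authors' deposited table, 1 had -0.10. The other, which sits in the FOSL1::JUN motif cluster and not with those above, had 0.12. These factors bind like sequences, and XBP1, ATF6 and CREB3 sit in 1 motif cluster of the table, so they are not separate observations.

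The ATF4 motif sits in the CEBPG motif cluster of the authors' deposited table, so its score is not separate from that of C/EBP motifs. It had 0.197 and 0.217 there (change 0.29), with 8.30% and 9.19% of 16813 sites called bound. The 95% Wilson intervals of these bound shares, 7.89% to 8.72% and 8.76% to 9.64%, did not overlap and cover counting error only. For XBP1 they did overlap, at 19.8% to 21.7% and 18.6% to 20.6%. Both genotypes were scored at the same sites, a pairing that the intervals ignore, and sites are not replicates of a genotype. XBP1 also had fewer sites, 6639, so overlap or its absence does not set the motifs apart. Ddit3::Cebpa, the Chop dimer, had a change of 0.12, NFYA, NFYB and NFYC, which bind the CCAAT end of the ER stress element, 0.079, 0.050 and 0.11, and HSF1 and HSF2 both 0.25 in the authors' deposited table. Side by side, the ATF4 motif was higher, with the 4 ATF4 targets at a median of -0.019 and the longer list of 44 ATF4 genes at 0.11 in RNA, and the XBP1 and ATF6 motifs were lower, with chaperone RNA at 0.10. The motif scores average over all sites searched and not over the promoters of these genes. They came from other libraries than the RNA, so binding at these genes was not tested.

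A change score has to be read against the whole table. Of the 879 motifs in the authors' deposited table, 61.9% were higher in overexpression, and 99.7% had the authors' p under 0.05, so that p does not set any motif apart. Among the 220 motifs with the highest wild-type scores, from 0.25 up, where XBP1 and ATF6 lie, 35.5% were higher, and among the other 659, where ATF4 lies, 70.7%. Across the 879 motifs the change and the wild-type score had a Spearman rho of -0.65, given as a description over motifs that share libraries and sites. The changes of XBP1, ATF6 and ATF4 stood at percentiles 26.3, 29.7 and 73.4 of the table.

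**Figure D4:**
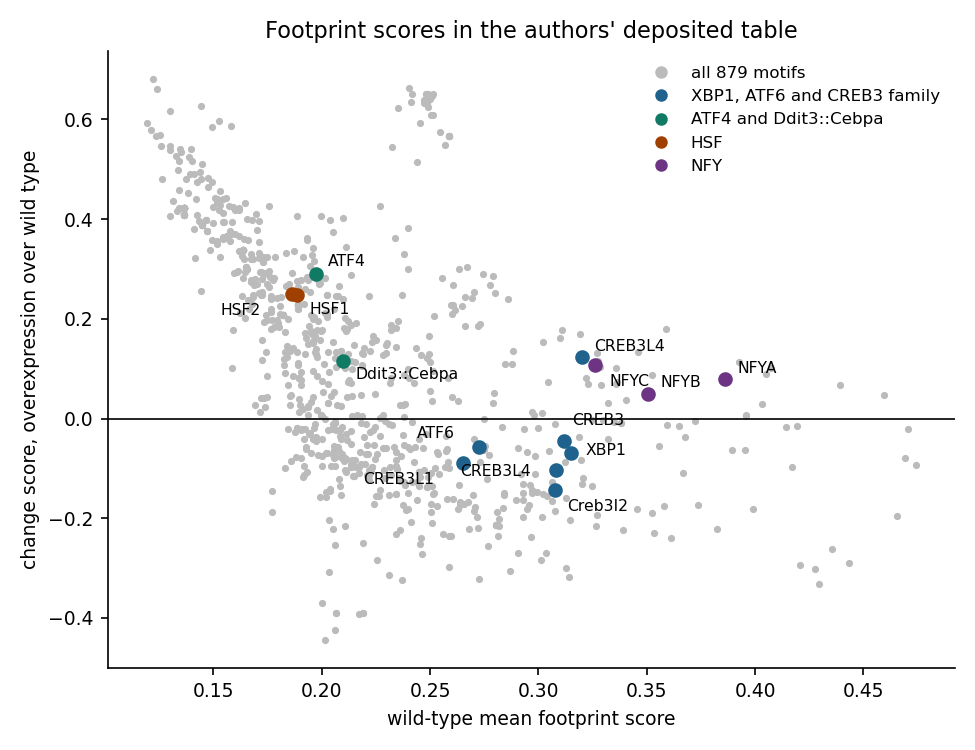
Change score of each motif in the authors' deposited table (vertical axis, positive where overexpression is higher) against its wild-type mean footprint score (horizontal axis), with all 879 motifs in grey and those of the branches and their partners in colour. XBP1 and ATF6 lie just below 0 among motifs with high wild-type scores and ATF4 lies at 0.29 among motifs with lower scores, inside the band that the grey motifs form.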

How the data were processed

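RNA was measured in 3 wild-type and 3 overexpression cultures. The authors deposited gene-level TPM, 1 column a library, each summing to 1000000 and made with kallisto per the labels. The submitters' processing notes name mm10. Version, annotation, read number and strandedness are not stated there. TPM are relative, and reads shared by near-identical genes are divided by estimation.

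The footprint table deposited by the authors follows TOBIAS BINDetect, per the file headers. Over merged mice it holds the mean footprint signal for each genotype, counts of sites searched and called bound, a signed change score and the authors' p-value. Its peak calling and scaling are not stated.

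Groups came from the genotype label, replicate numbers from the mouse numbers in the titles. Tests used log2(TPM + 1) of genes averaging 1 TPM or more, in limma (version 3.58.1, R 4.3.3; lmFit and trended eBayes), two-sided, with Benjamini-Hochberg adjustment over all 13131 genes and a threshold of 0.05. Fold changes on that scale understate those of low genes. An exact permutation test of 3 against 3 cannot go below p = 0.1. Lists were described by counts and medians, with no set test. On simulated data the fit recovered 81 of 100 genes with a log2 change of 1 and 92 of 100 with 2. It also called 9 unchanged genes. Changes as small as those of the members were not simulated, so recovery at their size is unknown. The changed genes were drawn at random with noise independent between genes. Recovery therefore does not carry over to genes that vary together between libraries. In the data 0 of 21 macrophage markers passed the adjusted threshold, at a median log2 fold change of 1.565. Gene positions and promoters are from RefSeq for GRCm38.p6, joined to the table by symbol.

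Members and lists were chosen with earlier results of these data known. The element sets were added after the data were seen. All 32 members are accounted for. Values per library are given for the sensors and factors, Serpinh1, the ATF4 targets, and the 4 most abundant and 4 lowest-p genes of the chaperone and degradation groups. From each further pathway list and the collagens the 2 lowest-p and 2 most abundant genes are named, mostly by fold change, and from each marker list the 2 most abundant. Canx was added after its values were seen. The remaining values came from scipy 1.17.1, numpy 2.4.6 and pandas 2.3.3 under Python 3.11.15.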

Additional observations from a re-analysis of the deposited data

How the results depend on the processing

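The chaperone median stayed positive under all 15 alternative fits, from 0.075 under quantile normalization to 0.14 without wild-type replicate 3 (range 0.096 to 0.14 when single libraries were left out), and the summed chaperone TPM differed by 609 to 786 TPM when single libraries were left out, against 704 TPM with all. The difference between the chaperone and ATF4 target medians was 0.108 to 0.185 without single libraries and -0.00064 with the further ATF4 genes added. The ATF4 target median lay between -0.059 and 0.0017. Counts were less stable. Members higher at an unadjusted p under 0.05 numbered 8 of 32 (25.0%, beside 10.6% of all genes tested, and 7.55% to 11.9% of them without single libraries), but 5 without the variance trend and 3 to 8 without single libraries (3 when wild-type replicate 2 and 4 when wild-type replicate 1 or 3 was dropped), and the 2 lower members (6.25%, beside 8.94% of all genes) were 1 without the trend and 1 to 3 without single libraries. The mouse numbers named different animals, deviations of same-numbered libraries had correlations of -0.022, 0.058 and 0.018, and with the replicate block the count was 5, with 1 gene called in all. Called genes numbered 2, but 1 with a mean of at least 5 TPM, 2728 with library quality weights and 1 to 828 without single libraries (828 without overexpression replicate 3). With those weights, which gave overexpression replicate 1 a weight of 5.66 and replicate 2 of 0.28, 7 members passed limma's adjusted threshold, Hspa5, Hsp90b1, Calr, Pdia3, P4hb and Sdf2l1 higher and Syvn1 lower, with adjusted p from 0.00886 to 0.0452. Of 479 fold changes of members under the alternatives, 21 changed sign, all in 10 members near 0. With quality weights these were Manf (-0.035), Atf6 (0.027), Atf4 (-0.043) and Trib3 (-0.022), and Trib3 also under quantile normalization (-0.030). When single libraries were left out, the ranges that crossed 0 were -0.045 to 0.086 for Trib3, -0.052 to 0.092 for Atf4, -0.0068 to 0.0998 for Manf, -0.043 to 0.013 for Atf6, -0.074 to 0.021 for Hyou1, -0.097 to 0.010 for Sel1l, -0.037 to 0.066 for Derl1, -0.10 to 0.053 for Derl3, -0.016 to 0.058 for Eif2ak3 and -0.0496 to 0.035 for Herpud1. TPM keep no depth, so what read number limits cannot be given, and with 3 mice a genotype the intervals above set the precision.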
